A study of Mus musculus with 4 samples.

Results

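The calnexin-calreticulin cycle is the part of glycoprotein folding in the endoplasmic reticulum (ER) described here, through the 7 genes that carry it out: *Canx*, *Calr*, *Uggt1*, *Uggt2*, *Ganab*, *Prkcsh* and *Mogs*. They were taken by name for their role in the cycle, and all 7 were found among the 32286 features counted. At 5 weeks of age, mice with floxed *Sel1l* alleles and Cre under the Synapsin I promoter (Sel1L Syn-Cre) were compared with Sel1L flox/flox mice. The label of the latter gives them the same floxed alleles and names no Cre, though a library of that group held Cre RNA. *Canx*, *Calr* and *Uggt1* were higher in Sel1L Syn-Cre in dentate gyrus (DG)-like, *Pvalb*-like and *Sst*-like neurons. In edgeR their difference between genotypes was larger in each of these subtypes than in CA1-like neurons, while DESeq2 called this for *Canx* and *Uggt1* in DG-like neurons. The subtypes set against CA1-like neurons were chosen with earlier results of these data known. *Canx* and *Calr* were also higher in oligodendrocyte precursor cell (OPC)-like nuclei. None of the tests called *Uggt2*, *Ganab*, *Prkcsh* or *Mogs* in any class.

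When a protein enters the ER, the oligosaccharyltransferase attaches a glycan tipped with glucoses to it. Glucosidase I (*Mogs*) removes the outermost glucose, and glucosidase II, a pair of a catalytic alpha subunit (*Ganab*) and a beta subunit (*Prkcsh*), removes the next. The glycan with a single glucose left is the ligand of the lectin chaperones calnexin (*Canx*), which is anchored in the membrane, and calreticulin (*Calr*), which is soluble. Glucosidase II then takes off the last glucose and frees the protein, and UDP-glucose:glycoprotein glucosyltransferase (*Uggt1*, and its relative *Uggt2*) puts a glucose back on proteins that are not yet folded, so that they bind the lectins again. Proteins that fail to fold lose mannoses and are handed to ER-associated degradation (ERAD), in which SEL1L is the adaptor of the ubiquitin ligase HRD1. In neurons the cycle serves receptors, channels and adhesion proteins, most of which carry such glycans.

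Sorted nuclei of hippocampus and cortex, taken from mice aged 5 weeks, were sequenced as 4 libraries of 1 mouse each. The genotype label of the Sel1L flox/flox group gives both mice *Sel1l* alleles with loxP sites and names no Cre. Both mice of the Sel1L Syn-Cre group carried the same floxed alleles and Cre driven by the Synapsin I promoter, which is active in neurons after their last division. The libraries held 7366 to 12599 nuclei and 74082610 to 122870443 unique molecular identifiers (UMIs, 1 per captured RNA molecule), and 6805 to 11116 nuclei per library were kept, with medians of 7245 to 8397 UMIs. Pairs of libraries shared 10 to 34 cell barcodes. Nuclei were clustered and named from marker genes, and the names carry the ending "-like" (13 neuron subtypes and 5 glial and endothelial classes, with 5051 neuron-like nuclei left without a subtype). Each class had at least 3 of its markers. The endothelial-like class was the least certain, with 36 nuclei in the library labelled Sel1L flox/flox replicate 2, and 39.0% of its nuclei kept that name when the libraries were clustered without integration. Its leading gene, *Ptgds*, led a cluster named vascular there, so the class is not of endothelial cells alone.

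Levels are given as CPM, the UMIs of a gene scaled to the total UMIs of a class in a library. They count the 3′ ends of RNAs and were compared for a gene between samples but not between genes. With sums over the nuclei of a class, fewer nuclei that use a gene and less RNA per nucleus cannot be told apart. Differences between genotypes are log2 fold changes, Sel1L Syn-Cre over Sel1L flox/flox, with their standard errors (SE). The adjusted p-values are from edgeR's quasi-likelihood test with Benjamini-Hochberg adjustment over all genes tested in the class, and a gene was called below 0.05. They rest on the spread between the 2 mice of each group, with its estimate moderated over all genes tested. *Xist* was at 0.436 and 2.19 CPM in both replicates numbered 1 and at 1614 and 1474 CPM in both numbered 2. The spread within a group thus also holds the difference between the sexes. An exact permutation test of 2 libraries against 2 cannot go below p = 0.333. Groups that do not overlap give just that p, and the same libraries enter every class. The share of all genes with such groups is not given here, so counts of classes with such groups are descriptions without a background.

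The genotype labels were first set against the data. UMIs of Cre were found in both Sel1L Syn-Cre libraries, with 236 and 221, and not in Sel1L flox/flox replicate 2, but the library labelled Sel1L flox/flox replicate 1 held 409. Called pairs of the members and their interactions are therefore also given without that library, and most other results only with it. Leaving it out leaves 1 Sel1L flox/flox library, so tests without it take the spread within groups from the Sel1L Syn-Cre libraries alone. *Sel1l* itself was not lower in the Sel1L Syn-Cre libraries. In all nuclei its level was 97.1 and 90.04 CPM in the Sel1L flox/flox libraries and 155 and 128 CPM in the Sel1L Syn-Cre libraries, and it was called higher in DG-like, *Pvalb*-like, *Sst*-like, *Lamp5*-like and OPC-like nuclei, by log2 fold changes of 1.42, 2.01, 1.90, 1.00 and 1.48. Counts summed over a whole gene do not check the deletion of a part of it.

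The 7 genes lie on 7 chromosomes (GRCm38, GENCODE vM21). *Canx* is at chr11:50293961-50325673 on the minus strand, *Calr* at chr8:84841850-84846934 on the minus strand, *Uggt1* at chr1:36140027-36244720 on the minus strand and *Uggt2* at chr14:118985039-119099430 on the minus strand. *Ganab* is at chr19:8898071-8916672, *Prkcsh* at chr9:22002806-22014222 and *Mogs* at chr6:83115496-83118898, all on the plus strand. Introns make up 85.2% of *Canx*, 87.7% of *Uggt1*, 88.8% of *Uggt2*, 70.7% of *Ganab*, 62.6% of *Prkcsh*, 43.4% of *Calr* and 15.02% of *Mogs*, which matters for RNA of nuclei because unspliced RNA is counted only where introns are included. *Uggt2* overlaps the antisense gene *Gm16835*, which is among the features counted, over 466 bases, and *Uggt1* overlaps *Mir6897*, which is not, over 62 bases. Whether the counting used the strand is not stated, so reads of *Uggt2* and *Gm16835* in those bases may not be told apart.

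The 2 lectin chaperones share a sequence in the promoter windows searched that the other members' windows do not hold, and it is shown for that reason. The ER stress response element (ERSE), which reads CCAAT, then 9 bases of any kind, then CCACG, is known as a binding site of ATF6 with NF-Y. It was searched on both strands of the 300 bases from 250 before to 50 after each start in RefSeq's table (GRCm38.p6), in which all 7 members were found. The *Uggt1* window, chr1:36244253-36244552, lies within the gene as placed above, so the bases before that gene's 5′ end were not searched. The *Prkcsh* window, chr9:22002738-22003037, lies mostly within its gene as well. It was present in 39 of 32851 promoters, which is 0.119%, and among the members in *Canx*, on the strand of the gene, and in *Calr*, on the opposite strand. The first base of the match lies 145 bases before the start in *Canx* and 162 bases before it in *Calr*. The 250 bases before the start are printed 5′ to 3′ on the strand of the gene, with the ERSE in capitals (in *Calr* it reads as its reverse complement), for *Canx* at chr11:50325674-50325923, minus strand, and for *Calr* at chr8:84846932-84847181, minus strand.
Canx: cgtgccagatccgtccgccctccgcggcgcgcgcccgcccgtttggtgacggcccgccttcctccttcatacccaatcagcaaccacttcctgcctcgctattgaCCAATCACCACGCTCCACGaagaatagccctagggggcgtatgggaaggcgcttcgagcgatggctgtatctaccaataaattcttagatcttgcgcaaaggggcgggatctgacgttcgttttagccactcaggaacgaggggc
Calr: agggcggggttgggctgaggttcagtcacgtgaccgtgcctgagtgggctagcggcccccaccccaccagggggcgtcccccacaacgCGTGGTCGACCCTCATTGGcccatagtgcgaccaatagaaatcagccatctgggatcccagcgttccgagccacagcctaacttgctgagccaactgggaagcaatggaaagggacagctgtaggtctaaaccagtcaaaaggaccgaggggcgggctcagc
Its parts are common on their own, CCAAT in 37.4% and CCACG in 32.8% of promoters, and every ERSE counts in both. CCAAT was found in the windows of *Canx*, *Calr*, *Uggt2* and *Ganab*. ERSE-II (ATTGG, then 1 base of any kind, then CCACG, in 0.0365% of promoters), the core of the unfolded protein response element (TGACGTGG, 0.676%) and the C/EBP-ATF response element (TGATGNAAN, 3.95%) were found in none of the 7 windows, which says only that these letters are not there.

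The comparison of genotypes within each class asked which members of the cycle differ in which cells. Over the 13 neuron subtypes, 9 of 87 pairs of a member and a subtype were called higher and 0 lower, and over the 5 glial and endothelial classes 2 of 32 pairs were called higher and 0 lower. The 9 pairs were *Canx*, *Calr* and *Uggt1* in DG-like, *Pvalb*-like and *Sst*-like neurons, where 3.47%, 4.11% and 9.09% of all genes tested were called in either direction and 1.83%, 2.22% and 4.95% were called higher. In OPC-like nuclei *Canx* and *Calr* were called, against 8.60% of all genes in either direction and 3.60% higher. In the other 14 classes no member was called. The share of all genes called was 0.171% in L2/3 IT-like, 1.70% in L4/5 IT-like, 0.900% in L5/6 IT-like, 0.434% in L6 CT-like, 0.0265% in L5/6 NP-like, 0.154% in L6b-like, 0.0328% in CA3-like, 0.00777% in CA1-like, 0.0268% in *Vip*-like and 0.459% in *Lamp5*-like neurons. It was 0.846% in oligodendrocyte-like, 1.01% in astrocyte-like, 0.0840% in microglia-like and 0.00% in endothelial-like nuclei (in the last, edgeR had 495 genes at an unadjusted p under 0.05 and DESeq2 called 4). The filter on low counts kept *Mogs* in 11 of the 18 classes and each other member in all 18.

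**Figure D1:**
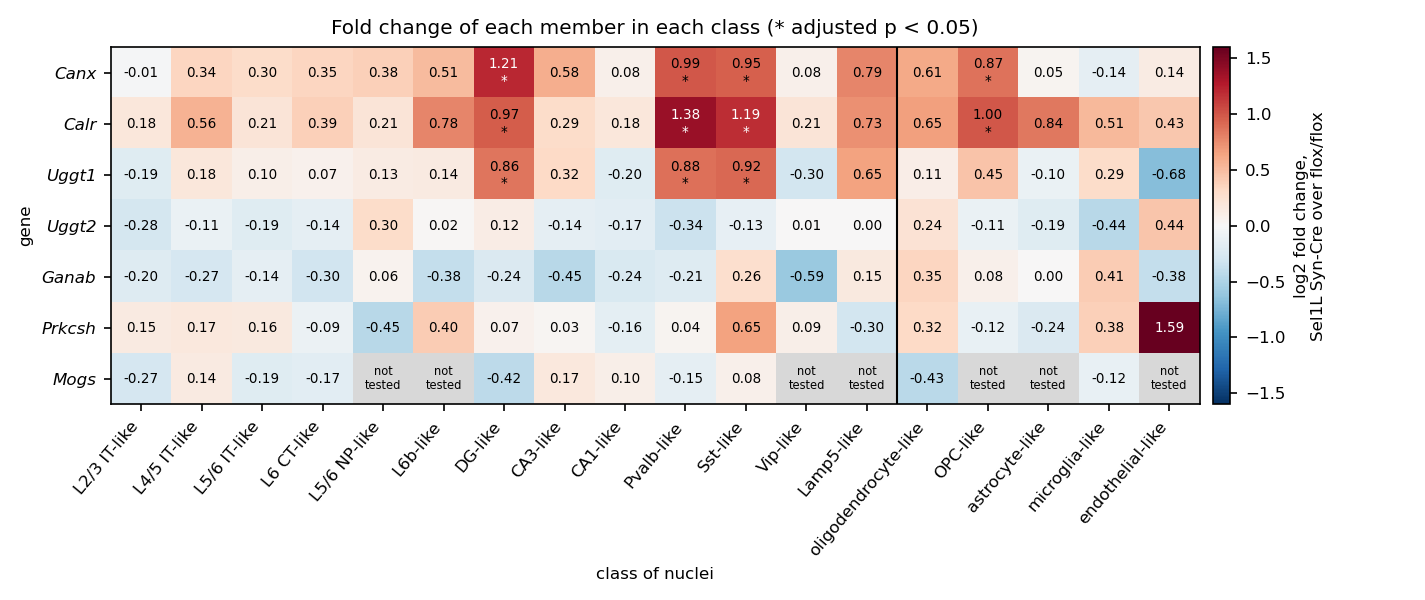
Log2 fold changes (Sel1L Syn-Cre over Sel1L flox/flox) of the 7 genes (rows) in 18 classes of nuclei (columns, neuron subtypes left of the line, glial and endothelial classes right of it), with an asterisk for an adjusted p below 0.05 in edgeR's quasi-likelihood test. The 11 asterisks are in the rows of *Canx*, *Calr* and *Uggt1*, and the largest called change is 1.38 for *Calr* in *Pvalb*-like neurons.

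*Canx* encodes calnexin, the membrane-bound lectin that holds glycoproteins with a single glucose until they fold. In DG-like neurons its level was 54.96 and 57.6 CPM in the Sel1L flox/flox libraries and 145 and 125 CPM in the Sel1L Syn-Cre libraries. The groups lay far apart, with a log2 fold change of 1.21 ± 0.125 (SE, n = 2 and 2) and an adjusted p of 0.000146 in edgeR. In *Pvalb*-like neurons the levels were 58.3 and 70.5 CPM against 153 and 114 CPM (log2 fold change 0.99 ± 0.17, adjusted p = 0.00601 in edgeR). In *Sst*-like neurons they were 65.6 and 69.2 CPM against 145 and 131 CPM (0.95 ± 0.149, adjusted p = 0.000264 in edgeR). In all 3 subtypes both Sel1L Syn-Cre libraries were above both others, and the ratio of the group means was 2.40, 2.07 and 2.05. Without the library labelled Sel1L flox/flox replicate 1, which leaves 1 library in that group, the log2 fold changes were 1.19, 0.88 and 0.94. The call in *Pvalb*-like neurons rested on Sel1L Syn-Cre replicate 1, without which the log2 fold change was 0.76 and the adjusted p was 0.0583 in edgeR.

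In CA1-like neurons *Canx* overlapped between the groups, at 49.8 and 62.8 CPM against 62.8 and 59.9 CPM (log2 fold change 0.08 ± 0.148, adjusted p = 0.925 in edgeR). In *Vip*-like neurons its levels were 69.4 and 68.5 CPM against 76.9 and 70.6 CPM (0.08 ± 0.167). L2/3 IT-like neurons were the one subtype with a fold change below 0, of -0.01 ± 0.154. Among subtypes without a call, the highest values were in *Lamp5*-like neurons, at 62.5 and 84.6 CPM against 144 and 124 CPM (0.79 ± 0.185, adjusted p = 0.0922 in edgeR), and in CA3-like neurons, at 49.6 and 55.2 CPM against 88.6 and 75.0 CPM (0.58 ± 0.15, adjusted p = 0.414 in edgeR). In both subtypes the Sel1L Syn-Cre libraries were the higher pair. In *Lamp5*-like neurons *Canx* passed in 5 of 14 settings, 2 of them without 1 library, Sel1L flox/flox replicate 2 (0.95, adjusted p = 0.000362 in edgeR) or Sel1L Syn-Cre replicate 2 (0.90, adjusted p = 0.0207 in edgeR). Over all 13 subtypes the median log2 fold change of *Canx* was 0.38, and the groups did not overlap in 11, each time with Sel1L Syn-Cre higher. That count has no background over all genes, and the same libraries enter each subtype.

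*Calr* encodes calreticulin, the soluble counterpart of calnexin that also stores calcium in the ER. In DG-like neurons it was at 32.4 and 28.8 CPM in the Sel1L flox/flox libraries and at 67.5 and 58.4 CPM in the Sel1L Syn-Cre libraries (log2 fold change 0.97 ± 0.141, adjusted p = 0.0021 in edgeR). *Pvalb*-like neurons had the largest difference of any called pair, with 23.0 and 23.5 CPM against 70.3 and 57.3 CPM, a ratio of means of 2.75 (1.38 ± 0.182, adjusted p = 0.00104 in edgeR). In *Sst*-like neurons the levels were 25.2 and 23.4 CPM against 70.4 and 47.1 CPM (1.19 ± 0.217, adjusted p = 0.00113 in edgeR). The Sel1L flox/flox libraries lay close together in each of these subtypes, and the Sel1L Syn-Cre libraries differed most from each other in *Sst*-like neurons. Without the library labelled Sel1L flox/flox replicate 1, which leaves 1 library in that group, the log2 fold changes were 1.08, 1.39 and 1.28.

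The fold change of *Calr* was above 0 in all 18 classes, with a median of 0.39 over the neuron subtypes. In 14 classes both Sel1L Syn-Cre libraries were above both others, a count without a background over all genes. CA1-like neurons had the lowest, 0.18 ± 0.176, with 25.9 and 28.7 CPM against 35.3 and 28.5 CPM, so the groups overlapped. In L4/5 IT-like neurons the levels were 24.0 and 20.4 CPM against 37.0 and 31.3 CPM (0.56 ± 0.169, adjusted p = 0.154 in edgeR). In *Lamp5*-like neurons they were 28.5 and 28.8 CPM against 46.4 and 55.8 CPM (0.73 ± 0.225, adjusted p = 0.216 in edgeR). The groups did not overlap in either subtype, and neither passed this test. In L4/5 IT-like neurons *Calr* passed in 2 of 14 settings.

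*Uggt1* encodes the folding sensor that returns unfolded glycoproteins to the lectins. Its level in DG-like neurons was 60.6 and 52.2 CPM in the Sel1L flox/flox libraries and 109 and 105 CPM in the Sel1L Syn-Cre libraries (log2 fold change 0.86 ± 0.123, adjusted p = 0.00198 in edgeR). In *Pvalb*-like neurons it was 70.6 and 69.7 CPM against 146 and 125 CPM (0.88 ± 0.146, adjusted p = 0.00471 in edgeR). In *Sst*-like neurons it was 69.4 and 57.5 CPM against 133 and 124 CPM (0.92 ± 0.158, adjusted p = 0.000627 in edgeR). The 3 subtypes had close ratios of means, 1.90, 1.93 and 2.03, and the groups were apart in each. Without the library labelled Sel1L flox/flox replicate 1, which leaves 1 library in that group, the log2 fold changes were 0.99, 0.92 and 1.11.

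Elsewhere *Uggt1* had fold changes of both signs. In CA1-like neurons it was at 53.0 and 50.7 CPM against 47.5 and 46.8 CPM, with both Sel1L Syn-Cre libraries lower (-0.20 ± 0.138, adjusted p = 0.734 in edgeR), and in *Vip*-like neurons at 67.5 and 48.5 CPM against 51.5 and 45.6 CPM (-0.30 ± 0.211). Neither passed the test. *Lamp5*-like neurons had 52.9 and 60.4 CPM against 101 and 88.0 CPM, the highest fold change among subtypes without a call (0.65 ± 0.181, adjusted p = 0.166 in edgeR), and it passed without Sel1L flox/flox replicate 2 (0.69, adjusted p = 0.0466 in edgeR). The median over the 13 subtypes was 0.14, against 0.38 for *Canx* and 0.39 for *Calr*.

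**Figure D2:**
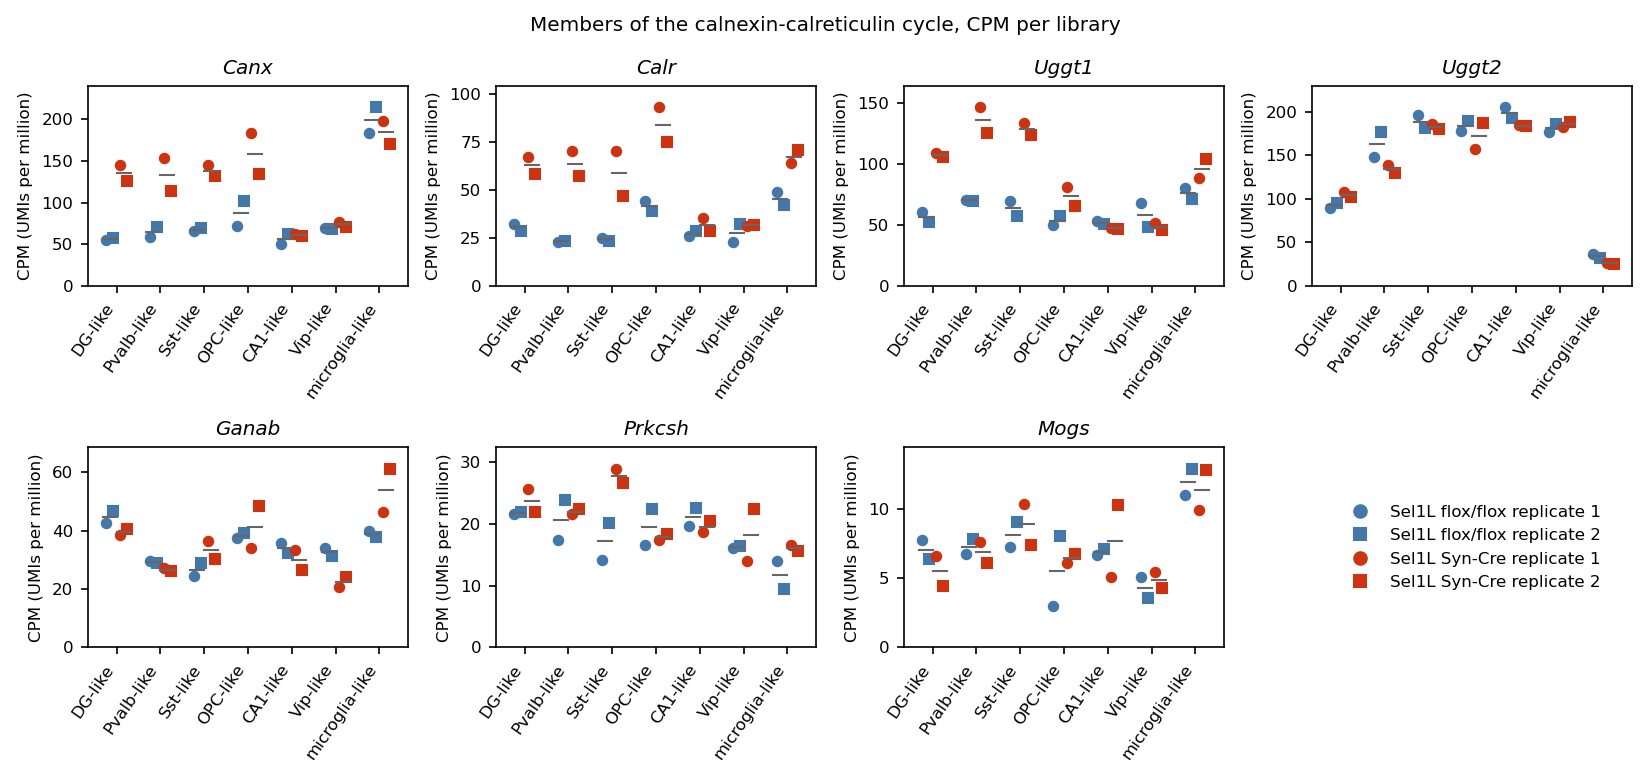
CPM (y axis, from 0) of each of the 7 genes in 7 classes of nuclei, with 1 point per library (blue Sel1L flox/flox, red Sel1L Syn-Cre, circles replicate 1, squares replicate 2) and a line at each group's mean. For *Canx*, *Calr* and *Uggt1* the red points stand above the blue ones in DG-like, *Pvalb*-like and *Sst*-like neurons and mix with them or lie close to them in CA1-like and *Vip*-like neurons, while the points of *Uggt2*, *Ganab*, *Prkcsh* and *Mogs* stay close together within most classes.

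*Uggt2* encodes the relative of UGGT1, a second glucosyltransferase, and did not follow *Uggt1*. In DG-like neurons its level was 89.9 and 95.1 CPM in the Sel1L flox/flox libraries and 108 and 102 CPM in the Sel1L Syn-Cre libraries (log2 fold change 0.12 ± 0.116, adjusted p = 0.675 in edgeR). In *Sst*-like neurons the groups overlapped, at 196 and 181 CPM against 186 and 180.2 CPM (-0.13 ± 0.135). In *Pvalb*-like neurons both Sel1L Syn-Cre libraries were lower, at 139 and 129 CPM against 148 and 177 CPM, without a call (-0.34 ± 0.136, adjusted p = 0.211 in edgeR). The fold change was below 0 in 8 of 13 neuron subtypes, with a median of -0.13. L2/3 IT-like neurons were one of them, with 205 CPM in both Sel1L flox/flox libraries and 159 and 181 CPM in the Sel1L Syn-Cre libraries (-0.28 ± 0.112, adjusted p = 0.349 in edgeR).

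The number of *Uggt1* UMIs per *Uggt2* UMI sets the 2 enzymes side by side within a library, where depth and scaling cancel. Levels were not compared between genes, so the ratio was compared between libraries but not read as a ratio of RNA molecules. In DG-like neurons it was 0.674 and 0.549 in the Sel1L flox/flox libraries and 1.01 and 1.03 in the Sel1L Syn-Cre libraries. In *Pvalb*-like neurons it was 0.477 and 0.394 against 1.05 and 0.969, and in *Sst*-like neurons 0.354 and 0.317 against 0.718 and 0.687. In CA1-like neurons the 4 ratios were 0.259, 0.263, 0.258 and 0.256. The groups were apart in all 4 of these subtypes, each with an exact permutation p of 0.333, the smallest that the design allows. The spread of the CA1-like ratios over the 4 libraries was far narrower than the gap between the groups in the other 3 subtypes. Some subtypes spread more within Sel1L flox/flox, at 0.382 and 0.261 in *Vip*-like and 0.694 and 0.411 in L6b-like neurons, where the groups overlapped. Groups were also apart in *Lamp5*-like neurons (0.461 and 0.455 against 0.717 and 0.717) and microglia-like nuclei (2.18 and 2.24 against 3.33 and 4.06). The same held in CA3-like neurons (0.351 and 0.293 against 0.425 and 0.468), and in L4/5 IT-like, L6 CT-like and OPC-like nuclei, with Sel1L Syn-Cre higher. In L5/6 NP-like neurons Sel1L Syn-Cre was lower (0.778 and 0.714 against 0.682 and 0.652). It was also lower in endothelial-like nuclei (1.5 and 2.33 against 0.605 and 1.0), on few UMIs. Groups that do not overlap were thus not particular to DG-like, *Pvalb*-like and *Sst*-like neurons.

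Glucosidase II trims the glycan before and after the lectins bind it. *Ganab*, its catalytic subunit, was at 42.7 and 46.8 CPM in DG-like neurons of the Sel1L flox/flox libraries and at 38.4 and 40.6 CPM in those of the Sel1L Syn-Cre libraries (log2 fold change -0.24 ± 0.136, adjusted p = 0.43 in edgeR). In *Sst*-like neurons it had 24.5 and 28.7 CPM against 36.6 and 30.3 CPM (0.26 ± 0.216). The groups were apart in both subtypes, in opposite directions and without a call. The lowest fold change was in *Vip*-like neurons, at 33.99 and 31.4 CPM against 20.6 and 24.1 CPM (-0.59 ± 0.232, adjusted p = 0.708 in edgeR). Over the subtypes, 10 of 13 fold changes were below 0 and the median was -0.24. In 7 both Sel1L Syn-Cre libraries were the lower pair, a count without a background over all genes.

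*Prkcsh*, the beta subunit that keeps glucosidase II in the ER, had 9 of 13 fold changes above 0 and a median of 0.07. Its highest was in *Sst*-like neurons, with 14.2 and 20.2 CPM against 28.9 and 26.6 CPM (0.65 ± 0.253, adjusted p = 0.124 in edgeR). Both Sel1L Syn-Cre libraries were the higher pair there, and the difference did not pass the test. In DG-like and *Pvalb*-like neurons the groups overlapped, with fold changes of 0.07 ± 0.176 and 0.04 ± 0.231.

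*Mogs*, glucosidase I, was the member with the fewest UMIs, 404 to 618 per library over all nuclei. In DG-like neurons it was at 7.77 and 6.36 CPM against 6.62 and 4.44 CPM (log2 fold change -0.42 ± 0.331). These values rest on 15 to 54 UMIs per library. In CA1-like neurons the 4 values were 6.68, 7.11, 5.09 and 10.3 CPM, and the groups overlapped. With so few counts only large differences were detectable, and of the 9 neuron subtypes in which *Mogs* was tested, 4 had fold changes above 0 and 5 below.

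Whether the difference between genotypes itself differed between subtypes was tested as an interaction, for DG-like, *Pvalb*-like and *Sst*-like neurons each against CA1-like neurons, which makes 21 pairs of a member and a comparison. *Canx*, *Calr* and *Uggt1* were called in all 3 comparisons, so 9 of 21 pairs, with the larger change in DG-like, *Pvalb*-like or *Sst*-like neurons. Of all genes tested, 2.70%, 2.17% and 3.25% were called in either direction. Each library was a block in this test, so its p-values rest on how the difference between the subtypes varies among mice of a group. For *Canx* the differences of log2 fold changes were 1.13 ± 0.147, 0.91 ± 0.165 and 0.86 ± 0.172 (adjusted p = 2.57e-06, 0.0029 and 0.00486 in edgeR). For *Calr* they were 0.80 ± 0.187, 1.21 ± 0.21 and 0.98 ± 0.23 (adjusted p = 0.00955, 0.00185 and 0.0165 in edgeR). *Uggt1* had 1.07 ± 0.151, 1.08 ± 0.163 and 1.11 ± 0.176 (adjusted p = 1.11e-05, 0.000424 and 0.000514 in edgeR). *Uggt2*, *Ganab*, *Prkcsh* and *Mogs* were not called, and their largest difference was 0.81 ± 0.284 for *Prkcsh* in *Sst*-like neurons (adjusted p = 0.151 in edgeR). DG-like, *Pvalb*-like and *Sst*-like neurons were chosen for this test with their own results known, and the 3 comparisons share the CA1-like values. CA1-like neurons, with 1 of 12863 genes called, had the fewest calls of any neuron subtype. The test is thus not independent of how the subtypes were chosen. CA1-like neurons also held only 1 and 1 Cre UMIs in the Sel1L Syn-Cre libraries. The study reports that SEL1L was mostly kept in CA1 and nearly lost in CA3 and DG. CA3-like neurons, which did not enter this test, held 4.37 and 8.11 CPM of Cre in the Sel1L Syn-Cre libraries. No member was called there, with log2 fold changes of 0.58, 0.29 and 0.32 for *Canx*, *Calr* and *Uggt1*. A difference between subtypes in their response and a difference in deletion cannot be told apart by this test.

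Without the library labelled Sel1L flox/flox replicate 1, 7 of the 9 interaction pairs were called. *Calr* missed the threshold in DG-like neurons (0.93, adjusted p = 0.0577 in edgeR) and in *Sst*-like neurons (1.15, adjusted p = 0.062 in edgeR). Its differences were as large there as with all 4 libraries. Leaving out the other libraries gave 6 pairs without Sel1L flox/flox replicate 2, 7 without Sel1L Syn-Cre replicate 1 and 8 without Sel1L Syn-Cre replicate 2. The pairs lost were *Calr* in DG-like neurons (adjusted p = 0.159 without Sel1L flox/flox replicate 2 and 0.0617 without Sel1L Syn-Cre replicate 2, in edgeR) and *Canx* and *Calr* in *Sst*-like neurons (adjusted p = 0.0733 and 0.116 without Sel1L flox/flox replicate 2, and 0.0658 and 0.251 without Sel1L Syn-Cre replicate 1, in edgeR). DESeq2 called 2 pairs, *Canx* and *Uggt1* in DG-like neurons, so the interactions of *Pvalb*-like and *Sst*-like neurons depend on the tool. Against *Vip*-like in place of CA1-like neurons 7 pairs were called, without *Calr* in DG-like and *Sst*-like neurons.

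**Figure D3:**
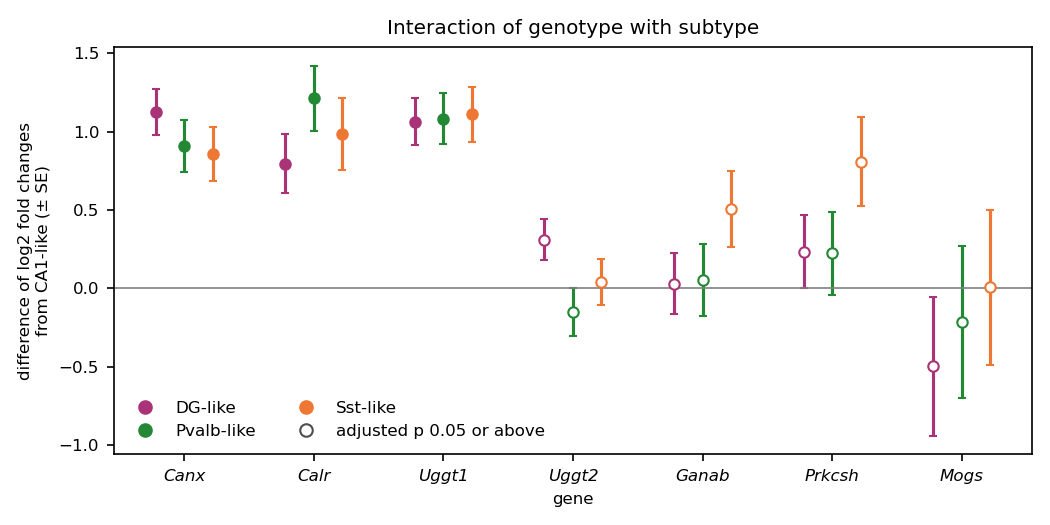
Difference between the log2 fold change of a subtype and that of CA1-like neurons (y axis, ± SE) for each of the 7 genes, in DG-like (purple), *Pvalb*-like (green) and *Sst*-like (orange) neurons, with open points for adjusted p-values of 0.05 or above. The 9 filled points belong to *Canx*, *Calr* and *Uggt1* and lie between 0.80 and 1.21.

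OPC-like nuclei were the one class outside neurons with called members. *Canx* was at 72.2 and 102 CPM in the Sel1L flox/flox libraries and at 183 and 134 CPM in the Sel1L Syn-Cre libraries (log2 fold change 0.87 ± 0.187, adjusted p = 0.00102 in edgeR). *Calr* was at 44.1 and 39.1 CPM against 93.2 and 75.3 CPM (1.00 ± 0.198, adjusted p = 0.000377 in edgeR). Both Sel1L Syn-Cre libraries were above both others for each gene. Without the library labelled Sel1L flox/flox replicate 1 the adjusted p-values were 0.0293 and 0.00098, and without Sel1L Syn-Cre replicate 1 *Canx* lost its call (0.61, adjusted p = 0.13 in edgeR). *Uggt1* had 50.1 and 57.0 CPM against 81.0 and 65.6 CPM (0.45 ± 0.195, adjusted p = 0.182 in edgeR).

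Cre UMIs were counted in these nuclei, at 13.6 CPM in the library labelled Sel1L flox/flox replicate 1, 0 in replicate 2, and 17.4 and 11.6 CPM in the Sel1L Syn-Cre libraries. The summed level of 6 oligodendrocyte markers in the class also differed between the groups, with 3103 and 2375 CPM against 104 and 164 CPM, none of the markers being at 0. With names given without integration, the class held 398, 360, 278 and 246 nuclei and 205, 172, 82.6 and 143 CPM of oligodendrocyte markers. There *Canx* was at 69.2 and 93.7 CPM against 180.3 and 135 CPM (0.97 ± 0.195, adjusted p = 0.00391 in edgeR), and *Calr* at 39.8 and 40.0 CPM against 89.7 and 74.4 CPM (1.05 ± 0.202, adjusted p = 0.00276 in edgeR), where 343 of 11173 genes were called. Oligodendrocyte markers were then far lower than before in the Sel1L flox/flox libraries and little changed in the Sel1L Syn-Cre libraries, which remained the lower pair. The OPC markers themselves summed to 11309.9 and 10835 CPM against 9652 and 8603 CPM there, and to 10276 and 10153 CPM against 9630.2 and 8695 CPM with integration. Neuron markers summed to 522, 516, 514 and 590 CPM in the integrated class. The part of these markers in the differences was not tested.

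In the other glial classes the members were not called. Oligodendrocyte-like nuclei had *Canx* at 74.4 and 78.9 CPM against 132 and 105 CPM (0.61 ± 0.184, adjusted p = 0.207 in edgeR). Astrocyte-like nuclei had *Calr* at 34.9 and 27.9 CPM against 67.7 and 45.1 CPM (0.84 ± 0.272, adjusted p = 0.201 in edgeR). In both the groups were apart, and *Calr* in astrocyte-like nuclei passed without Sel1L Syn-Cre replicate 2 (1.09, adjusted p = 0.0123 in edgeR). Microglia-like nuclei, which held the highest *Canx* level of any class, had it at 183 and 214 CPM against 198 and 171 CPM, and the groups overlapped (-0.14 ± 0.151). In endothelial-like nuclei *Prkcsh* had 12.7 and 0 CPM against 35.5 and 29.7 CPM, on 6, 0, 24 and 11 UMIs, and was not called (adjusted p = 0.83 in edgeR).

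RNA of other cell types in the neuron classes was set beside these results. The summed level of all glial and endothelial markers was 1321 and 1222 CPM against 1183 and 1162 CPM in DG-like neurons, 738 and 700.0 CPM against 653 and 662 CPM in *Pvalb*-like neurons, and 877 and 819.6 CPM against 874 and 816 CPM in *Sst*-like neurons. In none of the 3 subtypes were both Sel1L Syn-Cre libraries above the others. Cre itself was at 6.76, 0, 5.56 and 7.11 CPM in DG-like, 30.0, 0, 28.8 and 26.0 CPM in *Pvalb*-like, 20.4, 0, 17.5 and 14.9 CPM in *Sst*-like and 0.696, 0, 0.283 and 0.277 CPM in CA1-like neurons. Over the 13 neuron subtypes, the mean Cre level of the Sel1L Syn-Cre libraries had a Pearson's r of 0.70 with the log2 fold change of *Canx*, 0.857 with that of *Calr*, 0.778 with that of *Uggt1* and -0.397 with that of *Uggt2*, and Spearman's rho was 0.769, 0.835, 0.835 and 0.011, so that the negative value of *Uggt2* was not borne out by rank. Some of these Cre levels rest on few UMIs, 1 and 1 in CA1-like, 0 and 1 in L5/6 NP-like and 2 and 4 in *Vip*-like neurons. The library labelled Sel1L flox/flox replicate 1 did not enter the mean. With 30.0 CPM of Cre in *Pvalb*-like neurons, it had *Canx*, *Calr* and *Uggt1* at 58.3, 23.0 and 70.6 CPM there. Sel1L flox/flox replicate 2 had them at 70.5, 23.5 and 69.7 CPM. The correlations are descriptions, since the 13 points come from the same 4 libraries, and the part of Cre level in the differences was not tested.

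The number of nuclei with at least 1 UMI was compared after each nucleus had been thinned to 2000 UMIs, which makes nuclei of unequal depth alike. In DG-like neurons 10.2% and 13.0% of nuclei had a *Canx* UMI in the Sel1L flox/flox libraries and 23.3% and 22.4% in the Sel1L Syn-Cre libraries. Without thinning the shares were 33.0%, 36.9%, 61.4% and 59.1%. Thinning left out 11, 1, 3 and 0 nuclei with under 2000 UMIs, and the medians of UMIs per nucleus were 7546, 7614, 7125 and 7233. The mean thinned shares in Sel1L flox/flox and Sel1L Syn-Cre libraries were 11.6% and 22.9% for *Canx*, 6.43% and 12.2% for *Calr* and 9.39% and 17.8% for *Uggt1*, and the groups were apart for all 3.

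In *Pvalb*-like neurons the mean thinned shares with a *Canx*, *Calr* and *Uggt1* UMI were 11.4%, 4.78% and 13.4% in Sel1L flox/flox and 21.5%, 12.1% and 26.6% in Sel1L Syn-Cre libraries. In *Sst*-like neurons they were 15.01%, 6.04% and 13.0% against 20.04%, 12.7% and 22.1%. The groups were apart in each of these cases, but the size of a difference depended on the depth, since that of *Canx* in *Sst*-like neurons was 5.03 percentage points with 2000 UMIs and 19.9 with 4000. In CA1-like neurons the *Canx* shares were 10.3% and 12.5% against 15.1% and 8.99% and overlapped, and the unthinned means were 48.0% and 48.5%. The CA1-like share with a *Calr* UMI moved against its CPM, so no order was read from it. No class is known to lack these genes, so the share that free RNA alone would give could not be measured, and the intervals of the shares cover counting error only.

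**Figure D4:**
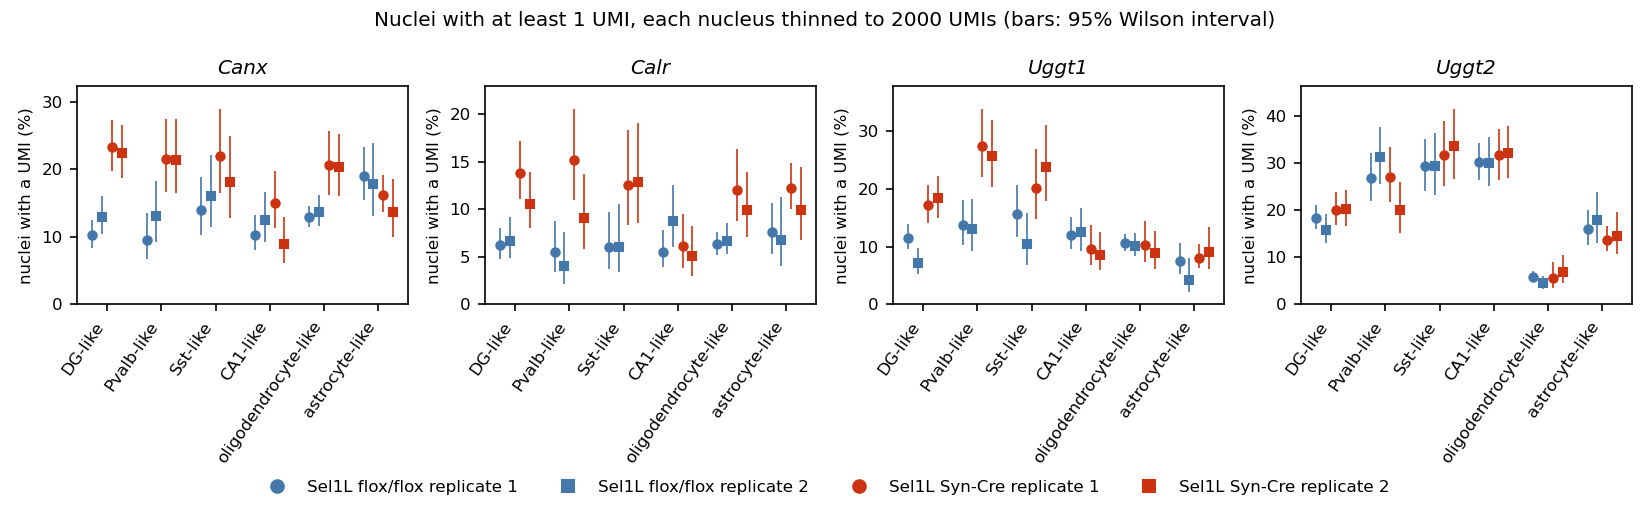
Percentage of nuclei with at least 1 UMI of *Canx*, *Calr*, *Uggt1* or *Uggt2* (y axis, from 0) after thinning each nucleus to 2000 UMIs, in 6 classes, with 1 point per library (blue Sel1L flox/flox, red Sel1L Syn-Cre) and bars for the 95% Wilson interval. In DG-like neurons the *Canx* shares go from 10.2% and 13.0% to 23.3% and 22.4%, while the *Uggt2* points of both groups mix in *Pvalb*-like neurons.

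The level of each member across classes was described in the Sel1L flox/flox libraries. *Canx* ranged from 199 CPM in microglia-like nuclei, over 128 CPM in endothelial-like and 102 CPM in astrocyte-like nuclei, to 50.9 CPM in L4/5 IT-like neurons, a range of 3.90-fold. Microglia-like and endothelial-like nuclei each stood apart from the next in order, but 14 of the 17 pairs of neighbours in the whole order overlapped in their libraries. In Sel1L Syn-Cre libraries no neighbours were apart, and OPC-like, *Sst*-like, DG-like, *Lamp5*-like and *Pvalb*-like nuclei were at 158, 138, 135, 134 and 134 CPM, among the 7 highest.

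*Calr* went from 58.2 CPM in endothelial-like nuclei to 21.9 CPM in L6b-like neurons in the Sel1L flox/flox libraries, with 14 of 17 neighbours overlapping. *Uggt1* had the narrowest range, from 81.9 CPM in endothelial-like to 45.2 CPM in astrocyte-like nuclei (1.81-fold, 15 of 17 neighbours overlapping). In the Sel1L Syn-Cre libraries that range was 3.11-fold, and *Pvalb*-like neurons were highest with 136 CPM. *Uggt2* had the widest, from 205 CPM in L4/5 IT-like neurons to 27.8 CPM in oligodendrocyte-like nuclei (7.38-fold), with 7 of 17 neighbours apart. *Ganab* went from 49.0 CPM in endothelial-like nuclei to 26.6 CPM in *Sst*-like neurons, *Prkcsh* from 23.7 CPM in *Lamp5*-like neurons to 6.34 CPM in endothelial-like nuclei, and *Mogs* from 11.95 CPM in microglia-like to 3.17 CPM in endothelial-like nuclei. The lowest values of *Prkcsh* and *Mogs* rest on 6 and 0 and on 3 and 0 UMIs, and in the Sel1L Syn-Cre libraries *Prkcsh* was highest in the endothelial-like class, with 32.6 CPM. In Sel1L flox/flox replicate 2 the endothelial-like values of *Canx*, *Calr*, *Uggt1* and *Ganab* rest on 9, 4, 7 and 3 UMIs.

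Genes whose pattern was most like that of a member were sought over the 72 values of 18 classes in 4 libraries, among 11777 genes, by Pearson's r of log2(CPM + 1). For *Calr* they were *Hspa5* (0.873), the ER chaperone BiP, *Dnajc3* (0.868), a co-chaperone of BiP, and *Pdia3* (0.862), the disulfide isomerase that binds calnexin and calreticulin. For *Uggt1* they were *Hyou1* (0.79), an ER chaperone of the HSP70 family, *Txndc11* (0.768) and *Sel1l* (0.736). *Canx* was most like *Hnrnpa3* (0.905), *Acbd3* (0.882) and *Rpl36al* (0.865). *Uggt2* was most like the neuronal genes *Astn1* (0.897), *Syn2* (0.887) and *Dlgap1* (0.875). The genes most like *Ganab* were *Gabpb2*, *Thoc2* and *Spidr* (0.783, 0.736 and 0.728), those most like *Prkcsh* were *Sugp1*, *Vps53* and *Cep162* (0.887, 0.885 and 0.864), and those most like *Mogs* were *Poli*, *Isoc2b* and *Ccdc86* (0.701, 0.686 and 0.657). These values mix differences between classes with those between genotypes.

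The other genes that add, trim and read N-glycans were taken as 6 lists of 35 genes. In the 13 neuron subtypes 37 of 434 pairs of a list gene and a subtype were called higher and 0 lower, and in the glial and endothelial classes 2 of 159 were called higher, *Pdia3* and *Magt1* in OPC-like nuclei. There 33 list genes were tested, and 8.60% of all genes were called in either direction and 3.60% higher, so these 2 calls are near the background. The subtypes with most calls were *Sst*-like neurons with 14 of 34 genes tested, *Pvalb*-like neurons with 10 of 34 and DG-like neurons with 7 of 35, beside the shares of all genes called given above. The median log2 fold change of the lists was 0.58, 0.58 and 0.35 in these subtypes, against medians of 0.0079, 0.0084 and 0.0060 over all genes tested. In CA1-like neurons 0 of 34 genes were called, with a median of -0.02, where edgeR had 1088 of all genes at an unadjusted p under 0.05. For the 7 members the median was 0.65, 0.04 and 0.12 in *Sst*-like, *Pvalb*-like and DG-like neurons and -0.16 in CA1-like neurons.

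The partners and relatives of calnexin and calreticulin had 8 of 82 pairs called in neuron subtypes. In *Sst*-like, *Pvalb*-like and DG-like neurons these were 3 of 6, 2 of 6 and 2 of 7 genes tested, against 9.09%, 4.11% and 3.47% of all genes. *Pdia3*, which forms disulfide bonds in proteins held by the lectins, was at 48.8 and 38.4 CPM against 140.0 and 121 CPM in neurons of the DG-like class (log2 fold change 1.52 ± 0.143, adjusted p = 7.7e-05 in edgeR). It was also called in *Pvalb*-like (1.47), *Sst*-like (1.64) and L4/5 IT-like neurons (0.70). *Ppib*, a prolyl isomerase that docks on the same lectins, was at 52.8 and 54.0 CPM against 194 and 101 CPM in DG-like neurons (1.42 ± 0.225, adjusted p = 0.00389 in edgeR). The Sel1L Syn-Cre libraries differed widely for *Ppib*, and it overlaps *Snx22* on the other strand over 1448 bases. *Mlec*, malectin, an ER lectin for glycans that still carry glucoses, was called in *Sst*-like neurons (1.32).

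The oligosaccharyltransferase, which attaches the glycan that the cycle then reads, had 22 of 152 pairs called, over *Stt3a*, *Stt3b*, *Rpn1*, *Rpn2*, *Ddost*, *Ostc*, *Krtcap2* and *Magt1*. In *Sst*-like, *Pvalb*-like and DG-like neurons 8, 5 and 4 of its 12 genes were called, against 9.09%, 4.11% and 3.47% of all genes. *Magt1*, an oxidoreductase subunit of the STT3B complex, had the largest change, at 13.8 and 12.7 CPM against 84.7 and 66.1 CPM in DG-like neurons (2.44 ± 0.169, adjusted p = 5.91e-06 in edgeR). Its log2 fold change was 2.55 in *Pvalb*-like and 2.72 in *Sst*-like neurons, and it was also called in *Lamp5*-like, CA3-like, L4/5 IT-like and L6 CT-like neurons. *Ostc*, a subunit of the STT3A complex, was at 28.8 and 29.3 CPM against 103 and 74.9 CPM (1.57 ± 0.158) and *Stt3a*, its catalytic subunit, at 24.7 and 22.7 CPM against 59.5 and 58.4 CPM (1.25 ± 0.141) in DG-like neurons. All 3 genes had groups that did not overlap there, a description without a background over all genes.

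Mannose trimming and the ERAD lectins had 5 of 77 pairs called. In *Sst*-like, *Pvalb*-like and DG-like neurons these were 2, 2 and 1 of 6 genes tested, against 9.09%, 4.11% and 3.47% of all genes. *Edem1*, which helps trim mannoses from proteins bound for ERAD, was called in *Pvalb*-like (1.40) and *Sst*-like neurons (1.09), *Edem2* in DG-like neurons (0.70), *Edem3* in *Sst*-like neurons (0.61) and *Os9*, a lectin of the SEL1L-HRD1 complex, in *Pvalb*-like neurons (0.80). Of the cargo lectins, which carry folded glycoproteins to the Golgi, *Lman1* was called in *Pvalb*-like (0.98) and *Sst*-like neurons (0.98), 2 of 51 pairs. That is 1 of 4 genes tested in each, against 4.11% and 9.09% of all genes. A single call in a list this short is not read as above the background. Glucose addition to the lipid-linked glycan (*Alg5*, *Alg6*, *Alg8* and *Alg10b*) had 0 of 47 pairs called and the Golgi endomannosidases (*Manea* and *Maneal*) 0 of 25. Between 0.00777% and 9.09% of all genes were called in the neuron subtypes, so no call in lists this short is not below the background.

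**Figure D5:**
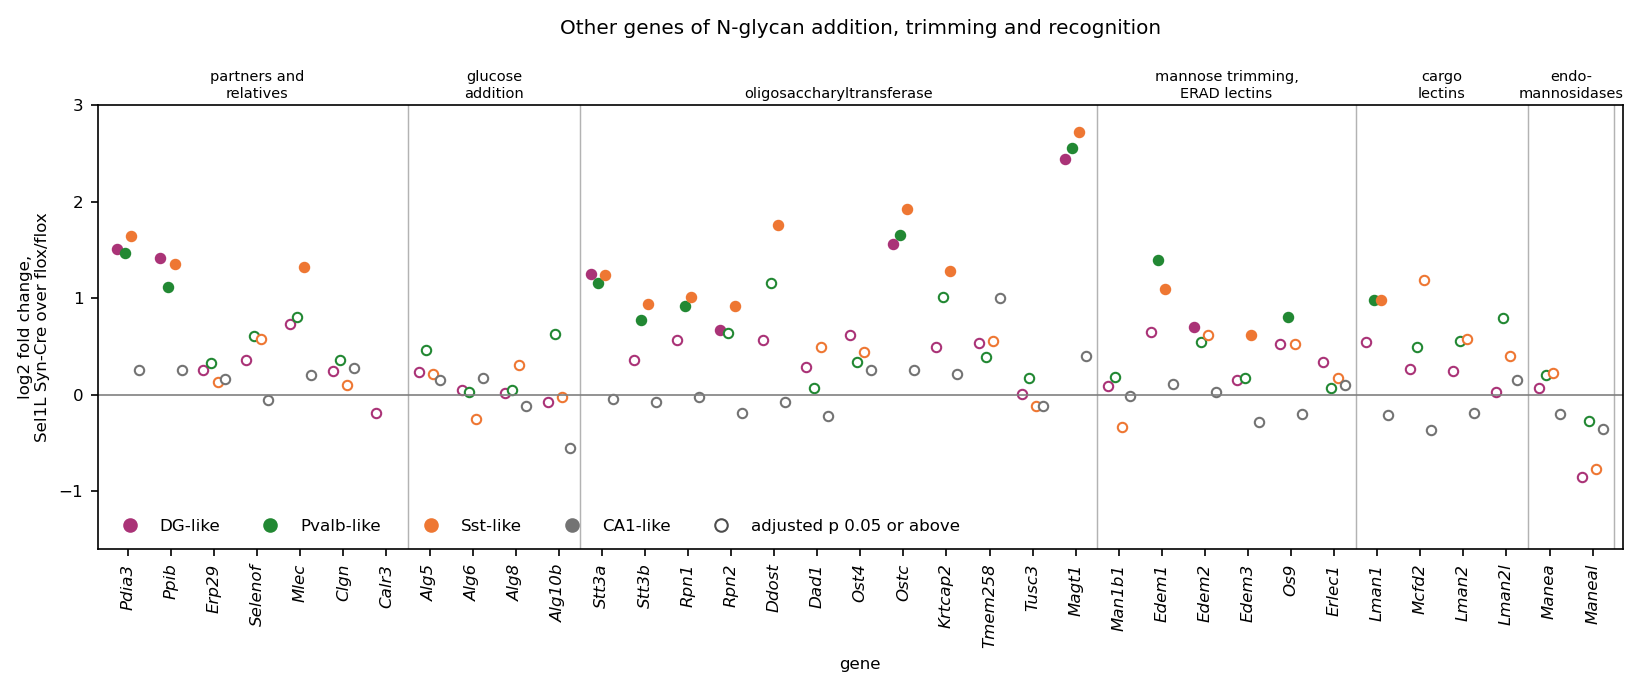
Log2 fold changes (Sel1L Syn-Cre over Sel1L flox/flox) of the 35 genes of the 6 lists (x axis, separated by lines) in DG-like, *Pvalb*-like, *Sst*-like and CA1-like neurons, with filled points for adjusted p-values below 0.05 in edgeR. *Magt1* stands highest, at 2.44 to 2.72 in the first 3 subtypes, and no point of CA1-like neurons is filled.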

How the data were processed

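Single-nucleus RNA of sorted nuclei was sequenced with 10x 3′ chemistry, in 4 libraries of 1 mouse each. The deposited matrices hold raw UMI counts per gene and nucleus, made by the authors with Cell Ranger 6.1.0 on GRCm38 per the submitters' processing notes. Whether introns or strand were used in counting is not given in the sources used here.

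From these counts, nuclei had to have more than 600 genes and under 5% mitochondrial UMIs. Those scored highest for doublets by Scrublet in scanpy 1.11.5 were then removed, 5.89% to 10.1% of a library, a rate set by its number of nuclei. Libraries were integrated and clustered in Seurat 5.3.0 (2000 features, 17 dimensions, resolution 0.2 and, for neurons, 0.4), and clusters were named from at least 3 markers. Counts were summed per class and library, and genotypes were compared in edgeR 4.0.16 (TMM scaling, filterByExpr, quasi-likelihood test, two-sided), with Benjamini-Hochberg adjustment over all genes tested. Interactions of genotype with subtype were tested in one model of both subtypes, with library as a block, so that subtypes were compared within each mouse. The code was tested on simulated data. Intervals cover counting error only. The alternatives were RLE scaling, totals, DESeq2 1.42.0, other filters, doublets kept, names without integration, the replicate block and each library left out. The text names all 7 members, *Sel1l*, Cre, the list genes that passed and the 3 genes most like each member. The members, lists and subtypes were chosen with earlier results of these data known.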

Additional observations from a re-analysis of the deposited data

Results flagged for a closer look

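The difference between genotypes was larger in DG-like, *Pvalb*-like and *Sst*-like neurons than in CA1-like neurons for 3 of the 7 genes, by edgeR's test of that difference. The excess, as a difference of log2 fold changes in the order of these subtypes, was 1.13, 0.91 and 0.857 for *Canx*, 0.796, 1.21 and 0.984 for *Calr* and 1.07, 1.08 and 1.11 for *Uggt1*. The same libraries enter every one of these values, and the subtypes were chosen with earlier results of these data known. CA1-like neurons held 1 and 1 Cre UMIs in the Sel1L Syn-Cre libraries, and the part of deletion in these differences was not tested. DESeq2 called 2 of these 9 pairs, *Canx* and *Uggt1* in DG-like neurons. With 1 library left out, *Calr* in DG-like neurons and *Canx* and *Calr* in *Sst*-like neurons each lost the call at least once.

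The library labelled Sel1L flox/flox replicate 1 held 409 UMIs of Cre, which its genotype label does not name, while Sel1L flox/flox replicate 2 held 0. Without it, 1 Sel1L flox/flox library is left, so the spread of that group is not measured. The log2 fold changes of the 11 called pairs of a member and a class were then 0.65 (*Canx* in OPC-like nuclei) to 1.39 (*Calr* in *Pvalb*-like neurons).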

How the results depend on the processing

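None of the counts, shares, levels and 16 pairs of a member and a class that were recomputed changed direction. Each of the 16 pairs was called in at least 1 setting, so the direction of the other pairs is not covered by them. The medians over all genes, which lie near 0, did, for example to -0.0037 in *Sst*-like neurons with RLE and -0.0058 in DG-like neurons without the filter. The number of pairs of a member and a neuron subtype called, 9, was between 9 and 11 under the alternatives that kept all 4 libraries. The 2 glial calls became 1 without Sel1L Syn-Cre replicate 1 (range with 1 library left out, 1 to 3). The 37 list calls became 24 with DESeq2 and ranged from 28 to 52 with 1 library left out. The 9 interaction calls became 2 with DESeq2 and 7 against *Vip*-like neurons, and ranged from 6 to 8 with 1 library left out, which was added after seeing the data. Leaving 1 library out leaves 1 library in its group, so the spread of that group is then not measured. The causes were not tested. Of the values of single pairs, 195 kept their side of the threshold, 11 passed it anew and 2 lost it (*Canx* in *Pvalb*-like and OPC-like nuclei without Sel1L Syn-Cre replicate 1).

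Thinning to 4000 in place of 2000 UMIs changed the differences in the share of nuclei with a UMI in DG-like, *Pvalb*-like and *Sst*-like neurons from 11.3, 10.1 and 5.03 to 20.6, 17.1 and 19.9 percentage points for *Canx*, from 5.79, 7.32 and 6.66 to 12.2, 19.3 and 12.8 for *Calr* and from 8.36, 13.2 and 9.01 to 12.7, 15.2 and 19.7 for *Uggt1*. The cause of the unequal moves was not tested. With TMM scaling the mean Sel1L flox/flox level was 70.1 CPM for *Canx* in *Sst*-like neurons and 24.0 CPM for *Calr* and 72.5 CPM for *Uggt1* in *Pvalb*-like neurons.

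With the replicate number as a block, 10 pairs of a member and a neuron subtype, 3 pairs of a member and a glial class and 47 list pairs were called. *Calr* in L4/5 IT-like neurons (adjusted p = 0.0361 in edgeR) and *Canx* in oligodendrocyte-like nuclei (adjusted p = 0.0137 in edgeR) were called anew. The labels tie the numbers to nothing, and there are 2 pairs. The deviations of same-numbered libraries from their group means correlated by 0.1004 to 0.242 in neuron subtypes. *Xist* was at 0.436 and 2.19 CPM in both replicates numbered 1 and at 1614 and 1474 CPM in both numbered 2, so the block also separates the sexes.

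With 2 mice per group, few UMIs of *Mogs* and classes of under 100 nuclei in a library, small differences could not be detected. The Cre UMIs in 1 library labelled flox/flox and the higher *Sel1l* counts leave the extent of the deletion in each class unmeasured. Nuclear RNA counts do not measure protein.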
